A study of Mus musculus with 12 samples.

Results

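The genes described here are the mouse orthologues of 10 human primary microcephaly genes: Aspm, Wdr62, Cdk5rap2, Cenpj, Mcph1, Cep152, Cep135, Stil, Cit and Kif14. They were taken by symbol, by a rule that names human primary microcephaly genes and uses no measured value, although earlier results of these data were known when the set was proposed. All 10 were found among the 54735 gene symbols of each library. RNA came from the pallium, the dorsal telencephalon that becomes the cerebral cortex, of 12 mouse embryos at E13.5, strain C57/Bl6. Control embryos had the genotype Rnu11wt/flx::Trp53wt/wt::Emx1-Cre+, conditional mutants (cKO) Rnu11flx/flx::Trp53wt/wt::Emx1-Cre+, and double mutants (dKO) Rnu11flx/flx::Trp53flx/flx::Emx1-Cre+, with 4 embryos in each group. Emx1-Cre was present in all 12 embryos, so that controls had a recombinable Rnu11 allele themselves and no group lacked Cre. Emx1-Cre acts in pallial progenitors and their descendants, and microglia and vessel cells in the dissected tissue keep intact alleles. U11, the product of Rnu11, is an snRNA with which the minor spliceosome recognises its rare introns, and Trp53 encodes p53. Control and cKO differ in U11, and dKO embryos add the removal of p53.

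Primary microcephaly is a small brain with largely preserved architecture, and most of its genes act at the centrosome, spindle or midbody of dividing cells. At E13.5 radial glia divide at the ventricular surface, and centriole duplication, spindle orientation and abscission are needed for these divisions. Aspm and Wdr62 act at spindle poles, and Cdk5rap2 recruits gamma-tubulin complexes to the pericentriolar material. Cep152, Stil, Cenpj and Cep135 build new centrioles. Mcph1 (microcephalin) acts in chromosome condensation timing and the DNA damage response, and citron kinase (Cit) and the kinesin Kif14 act in cytokinesis. Loss of several of these proteins is known to activate p53 in neural progenitors.

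The 2 members that passed the test in a comparison on the deposited scale, Aspm and Cep152, are shown by their promoter windows, since many G2 and M phase genes have CCAAT boxes and a cell cycle homology region (CHR). Each window has 250 bases before and 30 bases from the annotated start, from RefSeq on GRCm38.p6, 5′ to 3′ on the gene's strand. Capitals mark the CCAAT box on either strand and the CHR letters TTTGAA.
Aspm promoter: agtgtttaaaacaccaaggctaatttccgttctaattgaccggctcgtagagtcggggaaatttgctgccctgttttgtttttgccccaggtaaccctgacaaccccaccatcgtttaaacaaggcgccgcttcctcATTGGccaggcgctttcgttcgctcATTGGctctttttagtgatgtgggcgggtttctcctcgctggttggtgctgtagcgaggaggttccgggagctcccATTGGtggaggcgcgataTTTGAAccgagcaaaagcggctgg
Cep152 promoter: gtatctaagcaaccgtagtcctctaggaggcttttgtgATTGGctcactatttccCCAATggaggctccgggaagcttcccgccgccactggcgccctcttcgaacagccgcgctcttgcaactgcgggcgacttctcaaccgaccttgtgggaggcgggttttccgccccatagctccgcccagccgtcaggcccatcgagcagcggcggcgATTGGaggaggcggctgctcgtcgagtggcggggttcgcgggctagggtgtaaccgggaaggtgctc
The Aspm window (chr1:139454523-139454802, plus strand) had 3 CCAAT boxes and, at position 257 counted from 1 at its 5′ end, the CHR letters. The Cep152 window (chr2:125625084-125625363, minus strand) had 3 CCAAT boxes and no CHR letters. Promoters were matched for 9 of the 10 members, all but Mcph1. Searching both strands, CCAAT was found in 6 of the 9 (Aspm, Cep152, Stil, Cep135, Wdr62 and Kif14), against 36.1% of 32851 promoter windows of the same length. TTTGAA was found in 2 of the 9 (Aspm and Kif14) against 17.2%. The RefSeq windows of Kif14 (chr1:136467598-136467877), Cenpj and Cit lay inside the GENCODE gene spans given below, not at their outer start. The E2F letters TTTCCCGC were found in 1 of the 9 (Wdr62) against 1.01%, and TTTGGCGC in 0 of the 9 against 0.469%. These matches describe letters in the windows and were not tested as sites.

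Values are TPM, transcript abundances divided by gene length that sum to 1000000 in each library, so the sequencing depth is unknown. Rnu11 averaged 640.5 TPM in controls, against 144 for cKO and 164 for dKO, and both mutant groups lay below all controls (exact permutation test, two-sided, p = 0.0286, the smallest that 4 against 4 embryos can give). Trp53 averaged 3.82, 4.24 and 1.22 TPM in the same order, and dKO lay below control (exact permutation p = 0.0286). Nuclear protein-coding genes held 14.6% to 16.3% of control libraries, 16.1% to 19.99% of cKO and 14.4% to 15.5% of dKO. The median of all 11764 tested genes (mean of at least 1 TPM) was shifted by 0.25 on the log2(TPM + 1) scale in cKO against control, by -0.015 in dKO against control and by -0.26 in dKO against cKO. Each comparison is therefore given on the deposited scale and after median-shift centring, in which every library is shifted so that its median log2 difference from the mean library is 0. The tissue label was checked on markers fixed by list. Radial glial and pallial progenitor markers summed to 311 to 430 TPM over the 12 embryos, and those of the ventral telencephalon to 1.68 to 5.31. Microglial markers summed to 10.7 to 12.6 TPM in control, 40.8 to 58.9 in cKO and 12.4 to 17.1 in dKO, and their part in the results below was not tested. No marker on these lists was at 0 in all embryos of a group.

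Few of the 10 microcephaly genes passed the test in a comparison of genotypes, which does not show that their differences were small. In cKO against control, Cep152 rose and the other 9 did not pass the test. Between dKO and control none passed, and between dKO and cKO Aspm was lower in dKO and the other 9 did not pass. After median-shift centring or after rescaling each library to an equal nuclear protein-coding sum, no member passed in any comparison. Over the 10 members the estimated difference in log2(TPM + 1) ran from -0.20 to 0.35 in cKO against control. It ran from -0.19 to 0.092 in dKO against control and from -0.34 to 0.054 in dKO against cKO. In mean TPM, with nothing added, cKO stood at 75.8% (Wdr62) to 140.9% (Cit) of control. The dKO means stood at 79.8% (Kif14) to 109.7% (Cep152) of control and at 74.2% (Cit) to 109.2% (Wdr62) of cKO.

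These counts are read against all tested genes. In cKO against control 35.4% of tested genes were called (34.3% higher, 1.09% lower, limma with Benjamini-Hochberg adjusted p under 0.05), and 1 of 10 members was. Between dKO and control 5.19% of genes were called (1.79% higher, 3.4% lower) and 0 of 10 members. Between dKO and cKO 39.4% were called (0.612% higher, 38.8% lower) and 1 of 10 members. After centring the shares of all genes were 6.68%, 8.43% and 5.93%, and after protein-coding rescaling 13.1%, 9.18% and 9.68%, with 0 members called in each. At an unadjusted limma p under 0.05 there were 2, 0 and 4 members on the deposited scale and 5, 0 and 2 after centring, in the same order of comparisons. The shares of all tested genes by that rule were 48.3%, 20.1% and 50.9% as deposited and 21.6%, 24.5% and 23.4% after centring. The exact permutation test at p under 0.05, which 4 against 4 embryos reach only where the groups do not overlap, gave 1, 0 and 1 member on the deposited scale, against 33.7%, 13.6% and 33.2% of all genes. After centring it gave 5, 0 and 3 members, against 16.6%, 14.1% and 14.7%. The smallest adjusted p of a member in dKO against control was 0.295 (Kif14).

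**Figure D1:**
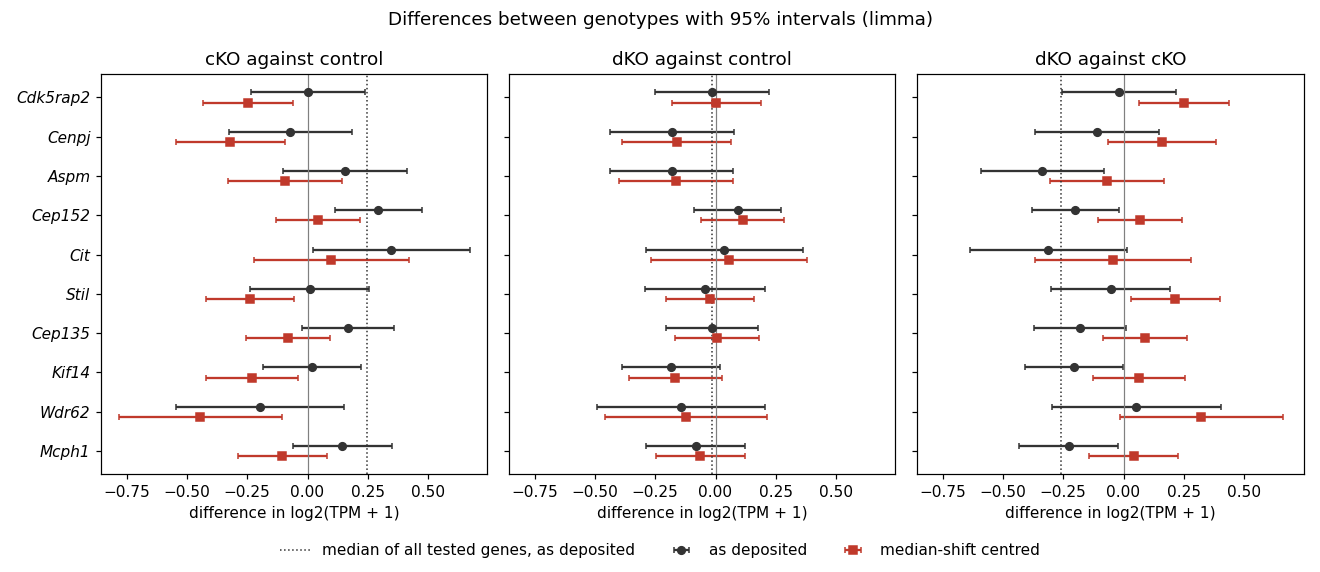
Difference between genotypes in log2(TPM + 1) for each microcephaly gene, with 95% intervals from limma, on the deposited scale (circles) and after median-shift centring (squares); the dotted line is the median of all tested genes on the deposited scale. In cKO against control most circles lie between 0 and the dotted line at 0.25, and most squares lie below 0; in dKO against control every interval includes 0 on both scales.

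The choice of scale sets the direction of most members in the comparisons with cKO. On the deposited scale the median member difference was 0.081 in cKO against control, with 8 of 10 positive, beside 0.25 for all tested genes. After centring it was -0.17 with 2 of 10 positive, beside -0.0034 for all genes. Protein-coding rescaling gave a median of -0.028. For dKO against cKO the median was -0.19 as deposited and 0.078 after centring, with 1 and 8 of 10 positive. For dKO against control, where the median of all genes moved little, the member median was -0.063 as deposited and -0.044 after centring. The intervals limit what these 4 embryos a group can show: over all members they reached from -0.49 to 0.36 in dKO against control and from -0.54 to 0.67 in cKO against control, on the deposited scale.

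Levels differed far more between genes than between genotypes. In control, Cdk5rap2 stood highest with 33.6 ± 3.08 TPM (SD, n = 4), at the 91.2 percentile of tested genes. Cenpj (6.77 ± 1.26) and Aspm (6.46 ± 0.219) followed and overlapped each other, but not Cdk5rap2 above or Cep152 below (2.49 ± 0.0986). From Cep152 down, the order ran Cit, Stil, Cep135, Kif14, Wdr62 and Mcph1, from 1.91 ± 0.456 to 1.18 ± 0.0712 TPM, and each gene overlapped its neighbour in this order. Members at these low levels are understated in change on a scale with 1 TPM added.

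The Cdk5rap2 level is uncertain. The processed pseudogene Ywhaq-ps3 (chr4:70248636-70249373, GENCODE M21 on GRCm38) lies inside the gene on the same strand and overlaps an exon of the short transcript Cdk5rap2-205. Of the 681 stretches of 31 bases in that 711-base transcript, 405 (59.5%) also occur in another gene, Ywhaq and its pseudogene among them. Over all Cdk5rap2 transcripts the share was 3.24%, and over each other member at most 1.25%. Ywhaq-ps3 itself was listed at 66.0 to 122 TPM. Over the 12 embryos the deposited log2(TPM + 1) of Cdk5rap2 had r = 0.64 with Ywhaq and r = 0.14 with Ywhaq-ps3, as a description. These values were not centred, so they include shifts of whole libraries. How the authors assigned shared reads is not given in the sources used here.

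**Figure D2:**
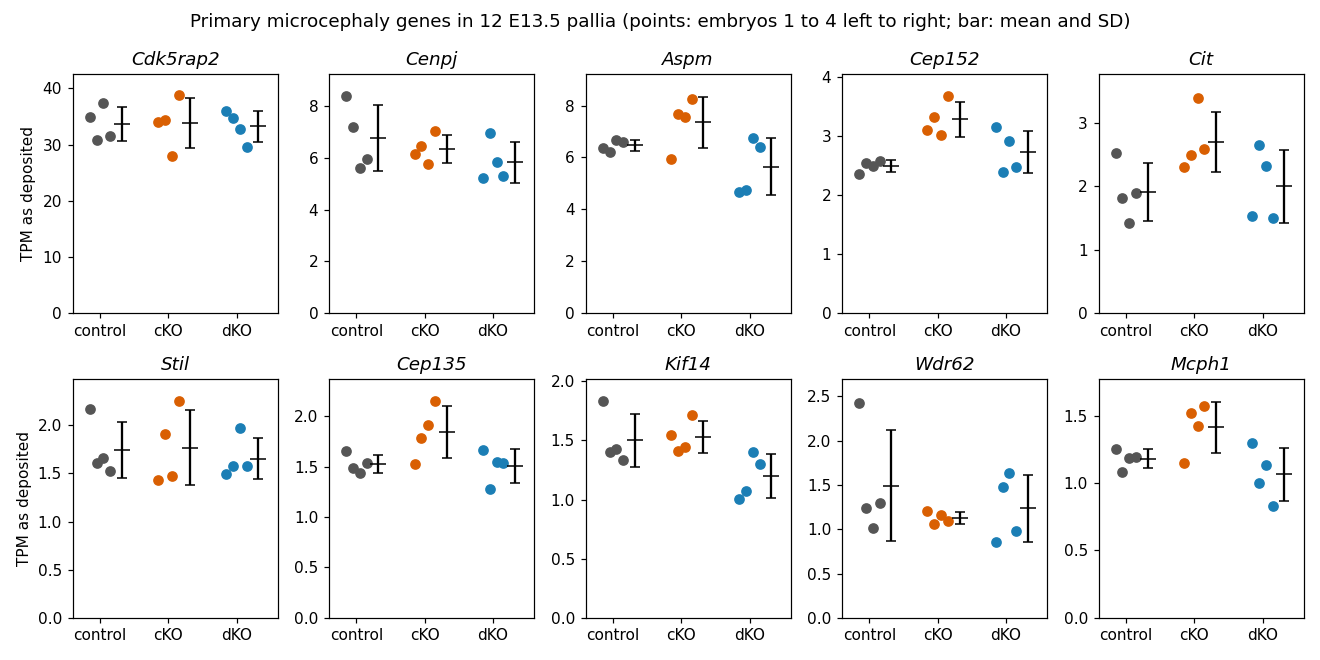
TPM as deposited for each microcephaly gene in the 4 control, 4 cKO and 4 dKO embryos, ordered by the control mean, with the group mean and SD beside the points; axes start at 0 and differ between genes. Cep152 in cKO lies above all controls, Kif14 in dKO lies below cKO, and Wdr62 has a single control embryo at 2.42 TPM.

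Among the spindle pole genes, Aspm (chr1:139454772-139494091, plus strand), which holds microtubule minus ends at the poles, was measured at 6.35, 6.21, 6.69 and 6.60 TPM in control embryos 1 to 4. It stood at 5.94, 7.66, 7.55 and 8.25 TPM in cKO and at 4.66, 4.75, 6.74 and 6.41 TPM in dKO. The cKO embryos lay on both sides of the narrow control range, and 2 of the dKO embryos were below every other embryo while dKO 3 and dKO 4 were near control. Between dKO and cKO the Aspm difference was -0.34 ± 0.118 (SE) in log2(TPM + 1), with an adjusted p of 0.0395, while the groups overlapped and the exact permutation p was 0.0857. It was -0.068 after centring (adjusted p = 0.751). The call was lost without control 3, control 4, cKO 2, 3 or 4, or dKO 1 or 2, with adjusted p from 0.0516 to 0.112. Against control the differences were 0.15 in cKO (adjusted p = 0.303) and -0.18 in dKO (0.434).

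Wdr62 (chr7:30240138-30280419, minus strand), a spindle pole scaffold that acts with Aspm, was at 2.42, 1.23, 1.02 and 1.30 TPM in control, at 1.21, 1.06, 1.17 and 1.09 TPM in cKO and at 0.851, 1.47, 1.64 and 0.977 TPM in dKO. Control 1 was higher than all other 11 embryos, and apart from it the groups overlapped. The difference in cKO against control was -0.20 (adjusted p = 0.335), and -0.033 without control 1. For dKO it was -0.14 (0.691), and 0.020 without control 1.

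Cdk5rap2 (chr4:70216856-70410443, minus strand) was at 34.8, 30.7, 37.4 and 31.6 TPM in control, at 34.1, 34.3, 27.9 and 38.8 TPM in cKO and at 35.9, 34.7, 32.8 and 29.6 TPM in dKO. All 3 groups overlapped on this scale. The cKO mean was 100.4% and the dKO mean 98.8% of control. For dKO the 95% interval of the fold against control ran from 0.839 to 1.17, subject to the shared reads described above.

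Of the centriole assembly genes, Cep152 recruits the kinase Plk4 that starts centriole duplication (chr2:125563088-125625113, minus strand). It was at 2.35, 2.55, 2.49 and 2.57 TPM in control, at 3.11, 3.32, 3.02 and 3.69 TPM in cKO and at 3.15, 2.39, 2.91 and 2.48 TPM in dKO. All cKO embryos were above all controls, and dKO embryos spanned both. The cKO mean was 131.9% of control. The difference was 0.29 ± 0.0832 (SE) in log2(TPM + 1), with a 95% interval from 0.11 to 0.47, an adjusted p of 0.0193 and an exact permutation p of 0.0286. This rise is close to the median shift of all genes, and the difference was 0.044 after centring (adjusted p = 0.807) and 0.18 after protein-coding rescaling (0.140). Without cKO 2 or cKO 4 the adjusted p was 0.0513 and 0.0568. On the deposited scale 32.7% of tested genes had all cKO embryos above all controls, as did 1 member. The Cep152 difference was 0.092 in dKO against control (0.600), and in dKO against cKO -0.20 (0.0706), which passed without dKO 1 (0.0361).

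Stil (chr4:115000159-115043196, plus strand), which helps place Sass6 at the start of the new centriole, was at 2.17, 1.60, 1.66 and 1.52 TPM in control, at 1.43, 1.91, 1.48 and 2.26 TPM in cKO and at 1.49, 1.58, 1.97 and 1.58 TPM in dKO. Control 1, cKO 2, cKO 4 and dKO 3 were the highest embryos, and all 3 groups overlapped. The differences from control were 0.0098 in cKO (adjusted p = 0.951) and -0.044 in dKO (0.880).

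Cenpj (chr14:56526761-56575425, minus strand), a tubulin-binding protein that sets centriole length, was at 8.37, 7.17, 5.60 and 5.93 TPM in control, at 6.14, 6.44, 5.76 and 7.01 TPM in cKO and at 5.23, 6.94, 5.82 and 5.31 TPM in dKO. Controls 1 and 2 were above all mutant embryos and controls 3 and 4 were within their range. The differences were -0.071 in cKO (adjusted p = 0.639) and -0.18 in dKO (0.440) against control.

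Cep135 (chr5:76588698-76646466, plus strand), which links the cartwheel to the centriole wall, ranged from 1.44 to 1.65 TPM in control, from 1.53 to 2.16 in cKO and from 1.28 to 1.67 in dKO. The cKO group was the widest and overlapped control at its lower end. The differences from control were 0.17 in cKO (adjusted p = 0.146) and -0.014 in dKO (0.954). Between dKO and cKO the difference was -0.18 (0.113), which passed without cKO 1 (0.0477).

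Mcph1 (chr8:18595131-18803189, plus strand) was at 1.26, 1.09, 1.19 and 1.20 TPM in control, at 1.15, 1.52, 1.42 and 1.57 TPM in cKO and at 1.30, 0.999, 1.13 and 0.833 TPM in dKO. Of the cKO embryos 3 were above every embryo of the other groups and cKO 1 was within the control range. The difference was 0.14 in cKO against control (adjusted p = 0.234) and -0.23 in dKO against cKO (0.0722). The latter passed without cKO 1 (0.0349) or dKO 1 (0.0443). Within Mcph1 on the opposite strand lie Angpt2, listed at a mean of 0.615 TPM, and the processed pseudogene Gm17149, at 0.998 TPM. The library kit keeps strand, but the strand setting of the counting is not given in the sources used here.

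Of the cytokinesis genes, Cit (chr5:115845278-116008947, plus strand) encodes citron kinase, which organises the midbody. It was at 2.52, 1.82, 1.41 and 1.90 TPM in control, at 2.31, 2.50, 3.39 and 2.59 TPM in cKO and at 1.53, 2.65, 2.32 and 1.51 TPM in dKO. The cKO embryos were above 3 of the 4 controls, and control 1 fell among them. The difference of 0.35 ± 0.150 (SE) had the highest estimate of the 10 members in cKO against control but did not pass (adjusted p = 0.0852), and without control 1 it was 0.44 and passed (0.0426). After centring it was 0.099 (0.761). For dKO it was 0.037 against control (0.927) and -0.31 against cKO (0.111), and without dKO 2 the latter was -0.41 and passed (0.0493).

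Kif14 (chr1:136466343-136531511, plus strand), the kinesin that brings citron kinase to the midbody, was at 1.83, 1.40, 1.43 and 1.34 TPM in control, at 1.54, 1.41, 1.45 and 1.71 TPM in cKO and at 1.01, 1.07, 1.41 and 1.30 TPM in dKO. The dKO embryos were all below the cKO embryos, by less than the rounding at the nearest pair, and overlapped control. The difference was -0.20 in dKO against cKO (adjusted p = 0.0980, exact permutation p = 0.0286) and -0.19 in dKO against control (0.295). Of all tested genes 32.8% had every dKO embryo below every cKO embryo on this scale, as did 1 member, Kif14. After centring the Kif14 difference in dKO against cKO was 0.065.

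On the centred scale, most member estimates in cKO lay below control. After protein-coding rescaling this held for fewer members. There Aspm (0.017), Mcph1 (0.055), Cep152 (0.18), Cep135 (0.067) and Cit (0.24) lay above control, with a member median of -0.028. After centring, Wdr62, Cdk5rap2, Cenpj, Stil and Kif14 were lower in all 4 cKO embryos than in all 4 controls, 5 of 10 members, against 7.81% of all tested genes, and no member was above. The same was so for 7 of 14 G2 and M phase markers, 5 of 12 S phase markers, 5 of 14 radial glial markers, 3 of 9 intermediate progenitor markers and 7 of 30 spindle partners, so the members were not alone in it. It was found for 3 of 33 centriole partners and 1 of 19 other microcephaly loci. For Cenpj the centred log2 values were 3.25, 3.19, 2.80 and 2.86 in control and 2.76, 2.70, 2.68 and 2.69 in cKO. For Stil they were 1.69, 1.54, 1.49 and 1.41 in control and 1.21, 1.34, 1.23 and 1.39 in cKO. All 5 separations were narrow: the gap between the lowest control and the highest cKO embryo was 0.018 for Stil, 0.024 for Kif14, 0.025 for Wdr62, 0.039 for Cdk5rap2 and 0.040 for Cenpj. The estimates of the 5 genes ran from -0.45 (Wdr62) to -0.23 (Kif14), and none had an adjusted limma p under 0.05 (0.0927 to 0.149). Control 1 was the highest control on this scale for Wdr62, Cenpj, Stil and Kif14, which enlarges these estimates. For Wdr62 it stood at 1.80, against 1.09 to 1.32 in the other controls. Between dKO and control 0 members were separate on either scale, against 13.6% of all genes as deposited and 14.1% after centring. Between dKO and cKO, Cdk5rap2, Cenpj and Stil were higher in all dKO embryos on the centred scale, against 7.32% of all genes, with differences of 0.25, 0.16 and 0.22 and adjusted p of 0.106, 0.384 and 0.152. The gaps were 0.0093, 0.0039 and 0.040, near ties for Cdk5rap2 and Cenpj. These comparisons share the cKO embryos. In bulk tissue, fewer cells that express a gene and less RNA per cell cannot be told apart. Beside this pattern, the centred median difference in cKO against control was -0.30 for radial glial markers (3 of 14 called lower) and -0.28 for intermediate progenitor markers (3 of 9 lower). Radial glial markers summed to 311 to 367 TPM in control, 354 to 430 in cKO and 332 to 342 in dKO on the deposited scale. The higher cKO sum did not hold for most of these genes. Their median deposited difference in cKO against control was -0.051, with 4 of 14 positive, 2 called higher and 1 called lower. Neuronal markers summed to 277 to 302 TPM in control, 368 to 452 in cKO and 197 to 297 in dKO, and vessel markers to 9.69 to 12.8, 19.5 to 25.4 and 12.3 to 19.4. On the centred scale 6 of 7 tested microglial markers were higher in cKO than in control. The part of these cell types in the member values was not tested.

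The wider machinery around the members was read from lists of related genes. Sass6 is on both the list of other microcephaly loci and that of centriole partners, so their counts share a gene. For dKO against control, where 3.4% of all genes were called lower and 1.79% higher, 1 of 19 genes of other human microcephaly loci, 2 of 33 centriole partners and 4 of 30 spindle partners were lower, and 0 of these were higher. None of 14 cytokinesis partners and none of 14 G2 and M phase markers passed, and 2 of 12 S phase markers were lower. The list medians were -0.093, -0.12, -0.15, -0.15, -0.32 and -0.28 in that order, each beside -0.015 for all genes and -0.063 for the members. After centring 5 of 30 spindle partners, 2 of 14 cytokinesis partners, 2 of 14 G2 and M phase markers and 4 of 12 S phase markers were lower, beside 4.69% of all genes. On that scale 1 of 19 other microcephaly loci was lower and 1 higher, and 2 of 33 centriole partners were lower and 1 higher.

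The called genes included direct partners of members. Cep63, which acts with Cep152 in recruiting Plk4, averaged 11.1 ± 1.37 TPM in control and 7.39 ± 1.33 in dKO (SD, n = 4), a difference of -0.54 (adjusted p = 0.0281). It was at 10.002, 11.2, 13.1 and 10.4 TPM in control, at 10.7, 13.4, 11.0 and 13.3 TPM in cKO and at 8.89, 7.25, 7.73 and 5.69 TPM in dKO. All dKO embryos were below all others, whereas Cep152 overlapped between dKO and control. Cep57, a centrosome protein, fell from 24.0 to 18.3 TPM (-0.37, 0.0454). In cKO against control Cep57 did not pass as deposited (-0.055, adjusted p = 0.658). It was called lower there after centring (-0.30, 0.0428) but not after protein-coding rescaling (0.0613). The condensin II subunit Ncapd3, from another microcephaly locus, fell from 3.83 ± 0.212 to 2.90 ± 0.315 TPM (-0.31, 0.0485), a call that was lost after protein-coding rescaling (0.0547).

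Of the spindle partners, the kinesin Kif11, which pushes spindle poles apart, fell from 15.6 to 11.4 TPM in dKO against control (-0.42, adjusted p = 0.0259). Hmmr, a spindle assembly factor, fell from 20.3 to 14.5 TPM (-0.46, 0.0298). Among S phase genes, the nucleotide synthesis enzymes Rrm2 and Tyms fell from 17.7 to 10.2 TPM (-0.72, 0.00732) and from 45.6 to 30.6 TPM (-0.56, 0.00669). All 4 calls held after centring and after protein-coding rescaling. In cKO against control Tyms was lower as well (-0.28, adjusted p = 0.0414). Kif11 (-0.079, 0.521), Hmmr (-0.14, 0.304) and Rrm2 (-0.15, 0.354) did not pass there on the deposited scale. They were called lower after centring (0.0393, 0.0390 and 0.0304). After protein-coding rescaling Hmmr passed (0.0496), and Kif11 (0.0902) and Rrm2 (0.0615) did not.

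In cKO against control on the deposited scale, 3 of 19 other microcephaly loci, 4 of 33 centriole partners, 7 of 30 spindle partners and 1 of 14 cytokinesis partners were higher and none lower, beside 34.3% higher among all genes. After centring none of these 4 lists had a higher gene, and 0, 1, 3 and 0 were lower. For G2 and M phase markers the counts were 0 either way as deposited and 2 of 14 lower after centring, and for S phase markers 2 and 4 of 12 lower, beside 2.96% of all genes lower after centring. The centred list medians ran from -0.032 for other microcephaly loci to -0.28 for G2 and M phase markers, and that of the members was -0.17. For dKO against cKO as deposited, 7 of 19 other microcephaly loci, 14 of 33 centriole partners, 16 of 30 spindle partners, 5 of 14 cytokinesis partners, 2 of 14 G2 and M phase markers and 3 of 12 S phase markers were lower, beside 38.8% of all genes, and none was higher. After centring, 0 genes of the 6 lists were lower, and 1 was higher among other microcephaly loci and 1 among centriole partners, beside 2.1% of all genes. The centred list medians there ran from -0.028 to 0.062.

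**Figure D3:**
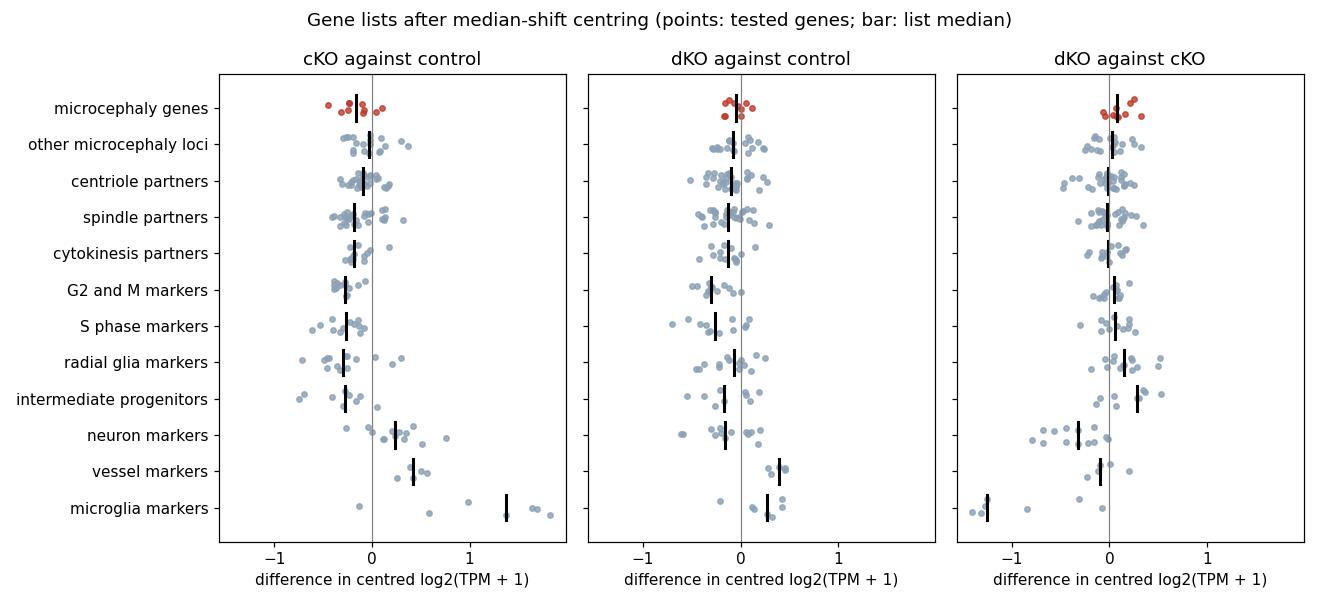
Difference in centred log2(TPM + 1) for each tested gene of the microcephaly set, the related lists and the cell type marker lists in the 3 comparisons; points are genes and bars are list medians. The 10 members lie within the spread of the related centrosome and spindle lists, at medians of -0.17, -0.044 and 0.078, and the microglial markers lie apart in the comparisons with cKO.

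Across the 12 embryos the members varied together only in part. The median Pearson r over member pairs was 0.22 on the centred scale, a description over embryos that share genotype and library composition. Wdr62 and Cenpj had the highest r of any pair (0.84), followed by Wdr62 with Kif14 (0.74) and with Stil (0.71). For Wdr62 (1.80), Cenpj (3.25), Kif14 (1.52) and Stil (1.69), control 1 had the highest centred value of the 12 embryos. These r values were not computed without control 1. Cdk5rap2 and Cit had the lowest r (-0.44). Cep152 and Cit had median r values of -0.14 and -0.059 with the other members. Control 1 was the highest control for 7 of the 10 members, and cKO 4, the library with the highest protein-coding share, was the highest cKO embryo for 8 of 10 on the deposited scale.

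Genes whose centred level was most like the mean of the members over the 12 embryos included Bicd2 (r = 0.93), Slc2a4 (0.91), Cyp39a1 (0.89) and Pcnt (0.87). They were picked for the highest r among all tested genes outside the set, so values this high follow in part from the selection. Pcnt encodes pericentrin, the pericentriolar scaffold that binds Cdk5rap2. Its mean level was 5.32 ± 0.825 TPM for control, against 4.96 ± 0.192 for cKO and 4.41 ± 0.856 for dKO (SD, n = 4). By list, the median r with the member mean was 0.52 for radial glial markers, 0.35 for G2 and M phase markers, -0.40 for neuronal markers and -0.72 for microglial markers, beside 0.012 for all tested genes.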

How the data were processed

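RNA of 12 E13.5 pallia was profiled from stranded total RNA libraries, per the labels. The authors deposited 1 table per embryo of TPM per gene symbol. The unit was inferred from the values, which are fractional and sum to 1000000 per library. HISAT2 and the mm10 build are named in the submitters' processing notes. The quantification tool, annotation, strand setting and treatment of shared reads are not given in the sources used here. TPM keeps no depth, so no counting interval or floor is given.

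In R 4.3.3, limma 3.58.1 (eBayes with trend, 1 fit of 3 groups) was fitted to log2(TPM + 1) of the 11764 genes averaging 1 TPM or more, and p-values were adjusted by Benjamini-Hochberg over all of them. Adjusted p-values in the text are from this fit. Exact permutation tests were two-sided over 70 assignments. The fit was run on simulated data with independent noise for each gene, which does not test how it suits these libraries. Replicates are separate embryos per the labels' titles, whose litters are not stated. Of the symbols, 54183 were matched to GENCODE M21, used for coordinates (GRCm38, which is mm10). All members were named. Of the related lists, the 2 highest and 2 lowest called genes per list in dKO against control were named, and the 5 genes most like the member mean, of which 1 is not reported here. The members and lists were chosen with earlier results of these data known. Alternatives were a pseudocount of 0.1, no filter, a mean of at least 5 TPM, median-shift centring, protein-coding rescaling, quantile normalization, a replicate block, 2-group fits and leaving out each embryo. Centring with each embryo left out was chosen after seeing the data. Plots were drawn with matplotlib 3.10.9 and tables with pandas 2.3.3.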

Additional observations from a re-analysis of the deposited data

How the results depend on the processing

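Depth limits are unknown, and 4 embryos a group leave intervals that do not exclude differences of the size of the median shift for most members. Scaling decided the direction of most members in comparisons with cKO, since it removes that shift. No other cause was tested. A pseudocount of 0.1 changed no direction or call.

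The count of members called in cKO against control, 1 on the deposited scale, was 0 with a mean of at least 5 TPM (only Aspm, Cdk5rap2 and Cenpj remain), median-shift centring, protein-coding rescaling, quantile normalization, the replicate block and the block with centring. In dKO against cKO, 1 became 0 with no filter, centring, protein-coding rescaling, quantile normalization, the block with centring and 2 groups only. Leaving out each embryo gave 0 to 2 in cKO against control (0 without cKO 2 or cKO 4, 2 without control 1), 0 in dKO against control and 0 to 3 in dKO against cKO (3 without cKO 1). With centring and each embryo left out, chosen after seeing the data, the count was 0 throughout.

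The count of all genes called in cKO against control, 4163, was 1900 with a mean of at least 5 TPM, 786 with centring, 1539 with protein-coding rescaling, 810 with quantile normalization and 502 with the replicate block and centring, and 2421 (without cKO 2) to 4372 with embryos left out. In dKO against control, 610 became 294, 992, 1080 and 1029 in the first 4 of these, and 346 (without control 4) to 700. In dKO against cKO, 4636 became 2220, 698, 1139, 798 and 415, and 3022 (without cKO 4) to 4814.

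No pairing by replicate number was found, which does not show that same-numbered embryos came from different litters. Of 12 same-numbered pairs, 0 had a correlation of deviations over 0.1 (-0.0954 to 0.0745). Likewise, 0 of 12 embryos had their own number as the best match in both other groups, a strict rule that says little alone. With the replicate block alone, Cep152 in cKO against control had an adjusted p of 0.0522, and 2979, 409 and 3608 genes were called.

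Median-shift centring, with or without the replicate block, turned the direction in cKO against control of Aspm (-0.095), Cdk5rap2 (-0.25), Mcph1 (-0.10), Cep135 (-0.082), Stil (-0.24) and Kif14 (-0.23), and without the block of Trp53 (-0.070). It turned Cdk5rap2 (0.0038) and Cep135 (0.0054) in dKO against control, and Cdk5rap2 (0.25), Cenpj (0.16), Mcph1 (0.041), Cep152 (0.068), Cep135 (0.088), Stil (0.22) and Kif14 (0.065) in dKO against cKO. Quantile normalization turned the same members except Cep135 in dKO against control: -0.10, -0.20, -0.13, -0.10, -0.26 and -0.25, then 0.0057 (Cdk5rap2), then 0.21, 0.18, 0.055, 0.085, 0.10, 0.22 and 0.072, in the same order. Protein-coding rescaling turned Cdk5rap2 (-0.15), Stil (-0.091) and Kif14 (-0.074) in cKO against control, Cdk5rap2 (0.050), Cep135 (0.027) and Stil (0.00038) in dKO against control, and Cdk5rap2 (0.20), Cenpj (0.083) and Stil (0.091) in dKO against cKO.

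Leaving out an embryo turned small differences: in cKO against control Cdk5rap2 (-0.067 to 0.087), Cenpj (-0.14 to 0.024), Stil (-0.072 to 0.082) and Kif14 (-0.016 to 0.079), in dKO against control Wdr62 (-0.23 to 0.020), Cdk5rap2 (-0.056 to 0.037), Cep135 (-0.045 to 0.032), Stil (-0.099 to 0.028) and Cit (-0.063 to 0.13), and in dKO against cKO Wdr62 (-0.031 to 0.14), Cdk5rap2 (-0.10 to 0.051) and Stil (-0.11 to 0.028).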
